A study of Homo sapiens and Mus musculus with 21 samples.

Results

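The DNA replication and S phase genes are 38 genes chosen by name: origin recognition and licensing factors, the replicative helicase, replication fork proteins, enzymes of nucleotide supply and regulators of S phase. All 38 were found in the shRNA table of 19848 genes, in the ciclopirox table of 23037 genes and, under their mouse symbols, in both thymus matrices. They were measured after knockdown or deletion of DHX15 and after ciclopirox treatment. DHX15 is a DEAH-box RNA helicase that disassembles spliceosomes and takes part in ribosome assembly. The cell line was CUTLL1, derived from human T-ALL (T-cell leukemia of immature lymphoblasts). It carried the lentiviral hairpin shDHX15-1, the lentiviral hairpin shDHX15-2 or a control hairpin against GFP (shGFP), with 3 RNA-seq libraries each. Other CUTLL1 cells received ciclopirox at 5 µM (the dose in the column names), an iron chelator used against fungi, or DMSO, the solvent, with 3 libraries each, and DHX15 was immunoprecipitated from CUTLL1 lysates together with bound RNA (RIP), alongside IgG and input, which the authors summarised as 1 peak list. Total thymocytes of 6-week-old Dhx15 knockout (KO) and Dhx15 fl/fl mice gave 1 single-cell library each. The Cre driver, the number of mice per library, the hours of infection or treatment and whether hairpin cells are clonal are not stated in the labels.

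Replication begins when the origin recognition complex, CDC6 and CDT1 load the MCM2 to MCM7 ring onto DNA in G1, and CDC45 and the GINS complex then turn the ring into a moving helicase. DNA polymerases alpha, delta and epsilon, the sliding clamp PCNA and its loader RFC copy the unwound strands, while ribonucleotide reductase, thymidylate synthase and thymidine kinase supply the nucleotides. Most of these genes are transcribed as cells pass from G1 into S phase, under the E2F family of transcription factors, and in the thymus they mark the dividing immature thymocytes.

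The promoters of 4 members are shown because their genes are among the largest changes with both hairpins described below, TK1 and HELLS higher and MCM6 and UNG lower. RefSeq promoter windows (GRCh38.p14, 250 bases before to 50 after each gene start) were found for 35 of the 38 members. The 150 bases before a start are printed 5′ to 3′ on the strand of the gene, and capitals mark matches, on either strand, to an E2F-type motif spelled TTNNCGC, where each N is C or G. TK1 and UNG have 2 windows each, and the one shown is the downstream of the pair. The 150 bases before the other start hold 0 matches for TK1 and 1 for UNG. The stretches lie at chr17:78187053-78187202, minus strand (TK1), chr10:94545638-94545787, plus strand (HELLS), chr2:135876444-135876593, minus strand (MCM6) and chr12:109098022-109098171, plus strand (UNG).
TK1: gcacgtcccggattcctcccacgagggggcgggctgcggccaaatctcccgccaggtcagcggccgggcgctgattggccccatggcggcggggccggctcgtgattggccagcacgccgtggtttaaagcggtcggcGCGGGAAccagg
HELLS: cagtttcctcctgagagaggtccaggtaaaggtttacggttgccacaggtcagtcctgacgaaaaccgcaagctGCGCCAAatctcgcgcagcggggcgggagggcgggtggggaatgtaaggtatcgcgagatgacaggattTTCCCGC
MCM6: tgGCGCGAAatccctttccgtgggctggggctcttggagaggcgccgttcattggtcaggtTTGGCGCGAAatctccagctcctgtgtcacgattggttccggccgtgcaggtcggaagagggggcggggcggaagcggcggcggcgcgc
UNG: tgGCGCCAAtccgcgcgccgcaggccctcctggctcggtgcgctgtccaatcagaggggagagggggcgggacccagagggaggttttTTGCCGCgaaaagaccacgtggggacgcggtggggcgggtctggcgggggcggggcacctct
At least 1 E2F-type match lay in a window of 28 of the 35 members (80.0%), against 2235 of 8745 genes tested in the shRNA table (25.6%) and 4169 of 27305 genes in all windows (15.3%). CCAAT, the letters bound by NF-Y, lay on either strand in windows of 24 of 35 members (68.6%), against 43.5% of tested genes. TTTGAA, the letters of the mitotic CHR element, lay in windows of 2 of 35 members, RRM1 and UNG (5.71%), against 13.4% of tested genes and 10 of 14 genes of G2 and mitosis (71.4%). The E2F-type letters were present in windows of 9 of the 9 members that rose with both hairpins and of 9 of the 11 that fell with both. These matches are a description of letters, not of binding.

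DHX15 itself was measured at 17.1, 17.3 and 16.5 RPKM with shDHX15-1, 16.1, 16.5 and 16.8 RPKM with shDHX15-2 and 42.8, 44.1 and 43.2 RPKM with shGFP. Its log2 fold change was -1.30 ± 0.03 (SE, limma adjusted p = 1.06e-09) with shDHX15-1 and -1.34 ± 0.03 (SE, limma adjusted p = 1.83e-09) with shDHX15-2. In the ciclopirox table it was at 9218, 8967 and 10216 normalised counts with ciclopirox and 14498, 16688 and 16311 with DMSO, a log2 fold change of -0.74 ± 0.09 (SE, limma adjusted p = 8.70e-05).

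After DHX15 knockdown the replication genes moved in both directions, and most changes were small. With shDHX15-1, 19 of 38 members were higher and 12 lower at a Benjamini-Hochberg adjusted p under 0.05 from limma on log2(RPKM + 1), and 7 were not called. With shDHX15-2, 10 were higher, 15 lower and 13 not called. Over all 15022 genes tested, shDHX15-1 called 45.4% higher and 28.9% lower (74.3% in all) and shDHX15-2 called 35.6% higher and 30.1% lower (65.7% in all). The mean of both hairpins called 15 members higher (42.6% of all genes) and 14 lower (30.2%, 72.9% in all). With each library centred on its median, shDHX15-1 called 12 members higher and 18 lower, and the share of higher among all its calls was 46.0% in place of 61.1%. The members' median log2 fold change was 0.06 with shDHX15-1 and -0.01 with shDHX15-2, against 0.09 and 0.03 over all genes. Both hairpins called 9 members higher (28.8% of all genes) and 11 lower (20.4% of all genes, 49.2% in either direction). With shDHX15-1, 34 members had libraries that did not overlap shGFP (76.3% of all genes), and with shDHX15-2, 27 did (69.8%). Set against each other, shDHX15-1 was higher than shDHX15-2 for 22 members (37.9% of all genes) and lower for 2 (23.2%, 61.1% in all), and the 2 groups did not overlap for 27 members (67.9%). Of the calls of this difference over all genes 62.0% were higher, or 45.9% with median-centring. The 2 hairpins share the shGFP libraries, so their agreement is not independent. The labels do not say whether libraries of a group came from separate cultures, so the p-values speak to library spread alone, which may be technical, and in bulk RNA fewer cells in S phase cannot be told apart from less RNA per cell.

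**Figure D1:**
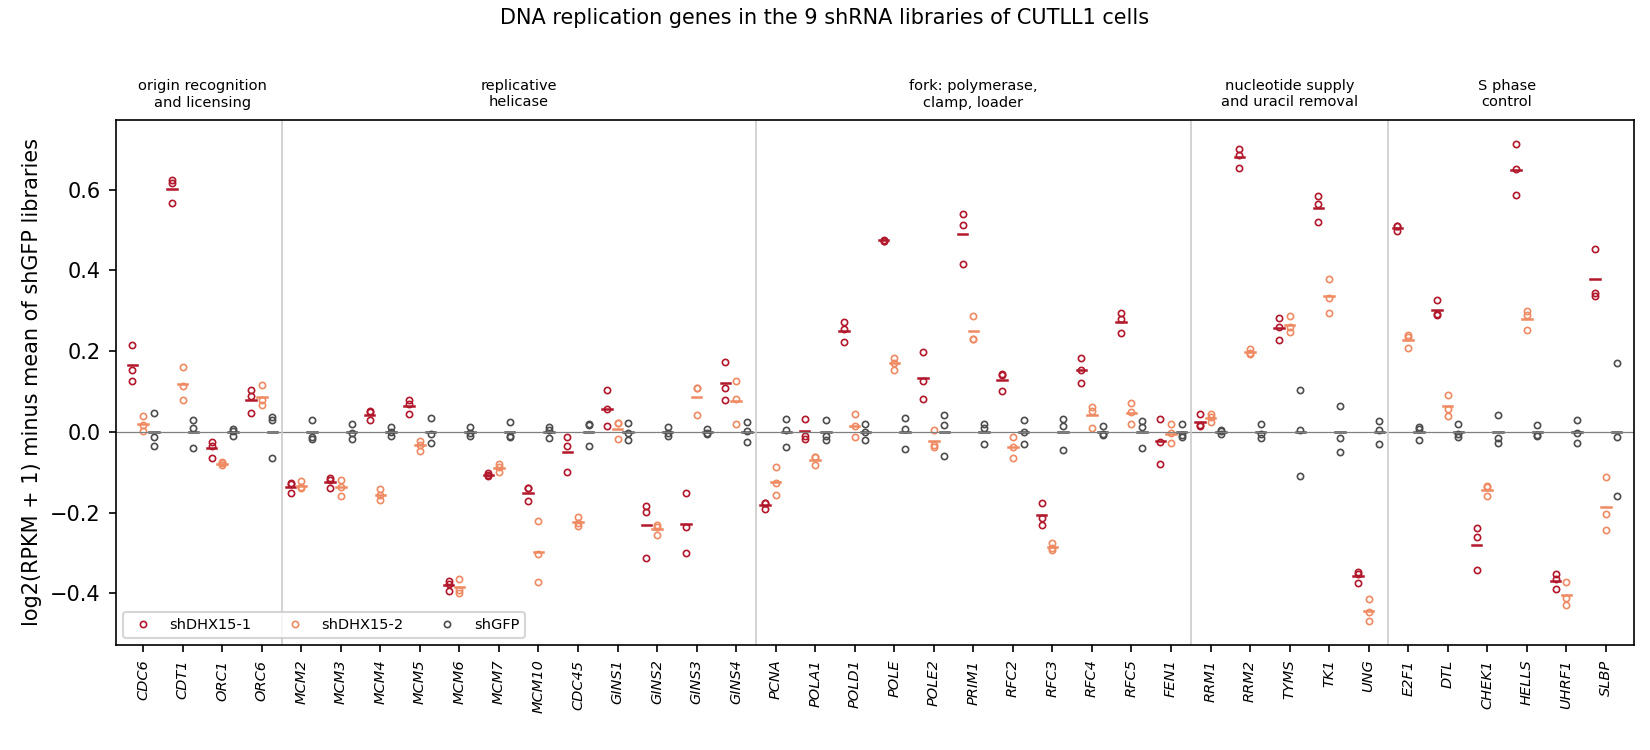
Each point is 1 library of CUTLL1 cells, as log2(RPKM + 1) minus the mean of the 3 shGFP libraries, for the 38 members ordered by role; horizontal ticks are group means. The licensing factor CDT1, RRM2, TK1, E2F1, HELLS, POLE and PRIM1 lie above the shGFP libraries with both hairpins, and MCM6, UNG and UHRF1 lie below them.

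Among the licensing factors, CDT1 rose with both hairpins. CDT1, which brings the MCM ring to origins, was at 97.1, 93.7 and 97.5 RPKM with shDHX15-1, 70.5, 68.1 and 66.6 RPKM with shDHX15-2 and 63.4, 61.2 and 64.3 RPKM with shGFP. All 6 knockdown libraries were above all shGFP libraries, and the log2 fold change was 0.60 ± 0.03 (SE, limma adjusted p = 1.34e-07) with shDHX15-1 and 0.12 ± 0.03 (SE, limma adjusted p = 0.00507) with shDHX15-2. CDC6, the ATPase that loads MCM with CDT1, was at 20.4, 21.4 and 20.0 RPKM with shDHX15-1, 18.3, 18.8 and 18.5 RPKM with shDHX15-2 and 18.1, 18.9 and 17.8 RPKM with shGFP. Its log2 fold change was 0.16 ± 0.03 (SE, limma adjusted p = 0.00099) with shDHX15-1 and 0.02 ± 0.03 (SE, limma adjusted p = 0.589) with shDHX15-2, of which the first passed but was 0.06 and did not pass with median-centring, and the shDHX15-2 libraries overlapped shGFP. The hairpins differed for both genes, by 0.48 ± 0.03 (SE, limma adjusted p = 1.57e-06) for CDT1 and 0.14 ± 0.03 (SE, limma adjusted p = 0.00305) for CDC6. ORC1, the largest origin recognition subunit, had log2 fold changes of -0.04 with shDHX15-1 and -0.08 with shDHX15-2, of which only the second passed (limma adjusted p = 0.00438). ORC6, a small origin recognition subunit, was at 0.08 with shDHX15-1 and 0.09 with shDHX15-2, of which the second passed but did not with median-centring (limma adjusted p = 0.039) and the first did not (limma adjusted p = 0.05003).

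Of the 12 members of the replicative helicase, 7 were lower and 3 higher with shDHX15-1, beside 28.9% lower and 45.4% higher of all genes. On recovered reads edgeR and DESeq2 each called 9 lower and 0 higher. No share of all genes by these tests is at hand, so these counts cannot be read as particular to the helicase. With shDHX15-2, 8 were lower and 0 higher, beside 30.1% lower and 35.6% higher of all genes. At an unadjusted p under 0.05 from limma, or by edgeR or DESeq2, 0 were higher, again without such a share. The 12 members' median log2 fold change was -0.12 with shDHX15-1 and -0.14 with shDHX15-2, and the group as such was not tested. MCM6, a subunit of the ring, was at 87.0, 88.6 and 88.2 RPKM with shDHX15-1, 88.9, 87.3 and 86.7 RPKM with shDHX15-2 and 114, 116 and 115 RPKM with shGFP. Its log2 fold change was -0.38 ± 0.02 (SE, limma adjusted p = 9.22e-08) with shDHX15-1 and -0.39 ± 0.02 (SE, limma adjusted p = 1.66e-07) with shDHX15-2, and all 6 knockdown libraries lay below the lowest shGFP library. MCM2, another ring subunit, was at 83.5, 84.8 and 84.9 RPKM with shDHX15-1, 85.2, 84.3 and 84.2 RPKM with shDHX15-2 and 91.7, 92.1 and 94.8 RPKM with shGFP, which is a log2 fold change of -0.14 ± 0.02 (SE, limma adjusted p = 0.000106) with shDHX15-1 and -0.13 ± 0.02 (SE, limma adjusted p = 0.000169) with shDHX15-2. MCM3 fell by 0.12 with shDHX15-1 and 0.14 with shDHX15-2 on the log2 scale, and MCM7 by 0.11 with shDHX15-1 and 0.09 with shDHX15-2, while quantile normalisation put MCM3 at 0.03 and MCM7 at 0.02 with shDHX15-1. GINS2, a GINS subunit, had log2 fold changes of -0.23 with shDHX15-1 and -0.24 with shDHX15-2, and MCM10, which helps to activate the helicase, of -0.15 with shDHX15-1 and -0.30 with shDHX15-2. These 6 genes fell with both hairpins.

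The remaining helicase genes differed between the hairpins or stayed near control. MCM4 was the only member called in opposite directions, at 0.04 with shDHX15-1 and -0.16 with shDHX15-2 (opposite calls made up 5.47% of all genes), and with median-centring of each library its shDHX15-1 value was -0.06. MCM5 was at 0.06 with shDHX15-1 and -0.03 with shDHX15-2, the first of which passed but was -0.04 with median-centring. CDC45, the helicase activator, was at -0.05 with shDHX15-1 and -0.22 with shDHX15-2, and only the second passed (limma adjusted p = 7.31e-05). The GINS subunits GINS1 (0.06 with shDHX15-1 and 0.01 with shDHX15-2) and GINS4 (0.12 with shDHX15-1 and 0.08 with shDHX15-2) had small values, of which GINS4 with shDHX15-1 passed but did not with median-centring (0.01). GINS3 fell with shDHX15-1 at -0.23 ± 0.04 (SE, limma adjusted p = 0.000694) and was at 0.09 with shDHX15-2, which did not pass.

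At the fork POLE and PRIM1 rose with both hairpins, and PCNA and RFC3 fell with both. POLE, the catalytic subunit of the leading-strand polymerase, was at 29.9, 29.9 and 29.97 RPKM with shDHX15-1, 24.1, 24.3 and 23.8 RPKM with shDHX15-2 and 20.6, 21.4 and 21.8 RPKM with shGFP. Its log2 fold change was 0.47 ± 0.02 (SE, limma adjusted p = 1.57e-07) with shDHX15-1 and 0.17 ± 0.02 (SE, limma adjusted p = 0.000164) with shDHX15-2, and no knockdown library overlapped shGFP. PRIM1, the primase subunit that starts each strand, was at 28.7, 29.3 and 26.8 RPKM with shDHX15-1, 23.4, 24.5 and 23.4 RPKM with shDHX15-2 and 19.4, 20.1 and 20.0 RPKM with shGFP. That gave a log2 fold change of 0.49 ± 0.03 (SE, limma adjusted p = 1.68e-06) with shDHX15-1 and 0.25 ± 0.03 (SE, limma adjusted p = 0.000204) with shDHX15-2. PCNA, the sliding clamp, was at 288, 288 and 285 RPKM with shDHX15-1, 292, 299 and 306 RPKM with shDHX15-2 and 327, 333 and 318 RPKM with shGFP, and fell, at -0.18 ± 0.02 (SE, limma adjusted p = 8.65e-05) with shDHX15-1 and -0.12 ± 0.02 (SE, limma adjusted p = 0.00131) with shDHX15-2. RFC3, a clamp loader subunit, was at -0.21 with shDHX15-1 and -0.29 with shDHX15-2.

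A further 5 fork genes were called higher with shDHX15-1 and not called with shDHX15-2. Of all genes 45.4% were called higher with shDHX15-1 and 28.8% with both hairpins, and the share with this pair of calls is not given. POLD1, the catalytic subunit of polymerase delta, was at 0.25 with shDHX15-1 and 0.02 with shDHX15-2, and the clamp loader subunits RFC5 (0.27 with shDHX15-1 and 0.05 with shDHX15-2), RFC4 (0.15 with shDHX15-1 and 0.04 with shDHX15-2) and RFC2 (0.13 with shDHX15-1 and -0.04 with shDHX15-2) and the polymerase epsilon subunit POLE2 (0.13 with shDHX15-1 and -0.02 with shDHX15-2) showed the same pair of calls. With median-centring RFC4 (0.04), POLE2 (0.03) and RFC2 (0.02) no longer passed with shDHX15-1, while POLD1 and RFC5 did. The differences between hairpins passed for all 5 of these genes, with limma adjusted p between 2.64e-05 for POLD1 and 0.00603 for POLE2. POLA1, the catalytic subunit of polymerase alpha, was at 0.00 with shDHX15-1 and -0.07 with shDHX15-2, and only the second passed (limma adjusted p = 0.0279). FEN1, the flap nuclease of lagging-strand maturation, was not called with either hairpin (-0.024 with shDHX15-1 and -0.0041 with shDHX15-2).

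By the mean of both hairpins HELLS (0.46), TK1 (0.45) and RRM2 (0.44) had the largest rises of the 38 members, and TK1 and RRM2 belong to nucleotide supply. RRM2, the regulated small subunit of ribonucleotide reductase, was at 137, 139 and 134 RPKM with shDHX15-1, 97.3, 97.9 and 97.0 RPKM with shDHX15-2 and 83.9, 85.9 and 84.5 RPKM with shGFP. All 6 knockdown libraries were above shGFP, by 0.68 ± 0.02 (SE, limma adjusted p = 5.25e-09) with shDHX15-1 and 0.20 ± 0.02 (SE, limma adjusted p = 1.39e-05) with shDHX15-2. Its partner RRM1 was not called, at 0.03 with shDHX15-1 and 0.04 with shDHX15-2. TK1, the S phase thymidine kinase, was at 40.6, 39.4 and 41.2 RPKM with shDHX15-1, 35.6, 33.6 and 34.5 RPKM with shDHX15-2 and 26.9, 28.5 and 26.2 RPKM with shGFP, a log2 fold change of 0.56 ± 0.03 (SE, limma adjusted p = 7.29e-07) with shDHX15-1 and 0.34 ± 0.03 (SE, limma adjusted p = 3.00e-05) with shDHX15-2. TYMS, which makes thymidylate, was at 271, 261 and 267 RPKM with shDHX15-1, 271, 266 and 264 RPKM with shDHX15-2 and 239, 206 and 223 RPKM with shGFP, a log2 fold change of 0.26 ± 0.05 (SE, limma adjusted p = 0.000716) with shDHX15-1 and 0.26 ± 0.05 (SE, limma adjusted p = 0.000778) with shDHX15-2. The difference between the hairpins did not pass, at -0.01 ± 0.05 (SE, limma adjusted p = 0.9). UNG, which removes uracil from DNA, went the other way, at 49.2, 48.5 and 49.4 RPKM with shDHX15-1, 45.3, 47.1 and 46.1 RPKM with shDHX15-2 and 63.3, 61.8 and 64.3 RPKM with shGFP. Its log2 fold change was -0.36 ± 0.02 (SE, limma adjusted p = 6.07e-07) with shDHX15-1 and -0.44 ± 0.02 (SE, limma adjusted p = 3.50e-07) with shDHX15-2. In RefSeq 7 members overlap another protein-coding gene (MCM7, GINS2, ORC1, RFC5, TYMS, CHEK1 and UHRF1), and the labels do not say whether strand was used in counting, so their values may include reads of the neighbour.

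Among the regulators of S phase, E2F1 and HELLS rose and UHRF1 and CHEK1 fell. E2F1, the transcription factor that drives many of these genes, was at 56.3, 56.2 and 55.7 RPKM with shDHX15-1, 46.5, 45.4 and 46.3 RPKM with shDHX15-2 and 39.4, 39.6 and 38.6 RPKM with shGFP. The change was 0.51 ± 0.02 (SE, limma adjusted p = 2.66e-08) with shDHX15-1 and 0.23 ± 0.02 (SE, limma adjusted p = 5.55e-06) with shDHX15-2 on the log2 scale, with no overlap between the groups. HELLS, a chromatin remodeller of dividing lymphoid cells, was at 18.1, 19.9 and 19.0 RPKM with shDHX15-1, 14.5, 14.6 and 14.1 RPKM with shDHX15-2 and 11.6, 11.9 and 11.6 RPKM with shGFP, a change of 0.65 ± 0.03 (SE, limma adjusted p = 2.07e-07) with shDHX15-1 and 0.28 ± 0.03 (SE, limma adjusted p = 6.94e-05) with shDHX15-2. UHRF1, which recruits DNA methyltransferase to newly copied DNA, was at 89.3, 86.9 and 88.5 RPKM with shDHX15-1, 88.1, 85.6 and 84.6 RPKM with shDHX15-2 and 114, 112 and 117 RPKM with shGFP. It changed by -0.37 ± 0.02 (SE, limma adjusted p = 6.08e-07) with shDHX15-1 and -0.40 ± 0.02 (SE, limma adjusted p = 6.90e-07) with shDHX15-2. CHEK1, the replication checkpoint kinase, was at -0.28 with shDHX15-1 and -0.14 with shDHX15-2, and DTL, which targets CDT1 for destruction in S phase, rose, at 0.30 with shDHX15-1 and 0.06 with shDHX15-2, the second of which did not pass with median-centring (0.02). SLBP, which binds the stem-loop of histone mRNAs, was at 109, 100.7 and 101.3 RPKM with shDHX15-1, 73.6, 69.0 and 67.1 RPKM with shDHX15-2 and 89.7, 71.2 and 78.9 RPKM with shGFP. SLBP rose with shDHX15-1 and was lower without passing with shDHX15-2, at 0.38 ± 0.08 (SE, limma adjusted p = 0.00149) with shDHX15-1 and -0.19 ± 0.08 (SE, limma adjusted p = 0.0552) with shDHX15-2. Its shGFP mean was 79.9 ± 9.29 RPKM (SD, n = 3).

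Related lists of cell cycle genes contain none of the 38, and their counts stand beside 45.4% higher and 28.9% lower of all genes with shDHX15-1 and 35.6% higher and 30.1% lower with shDHX15-2. Of 45 tested other replication genes, 26 were higher and 9 lower with shDHX15-1, and 19 higher and 11 lower with shDHX15-2. In this list POLD4, a polymerase delta subunit, had log2 fold changes of 0.77 with shDHX15-1 and 0.82 with shDHX15-2, CHTF18, an alternative clamp loader subunit, 0.90 with shDHX15-1 and 0.32 with shDHX15-2, CDC7, the kinase that fires origins, 0.63 with shDHX15-1 and 0.49 with shDHX15-2, and POLE3, a polymerase epsilon subunit, -0.43 with shDHX15-1 and -0.45 with shDHX15-2. Of 24 genes of E2F and G1 to S control, 9 were higher and 10 lower with shDHX15-1 and 9 and 12 with shDHX15-2. The leading ones were TFDP2, an E2F partner (-0.84 with shDHX15-1 and -0.81 with shDHX15-2), CDK6 (-0.60 with shDHX15-1 and -0.91 with shDHX15-2), cyclin D3 (CCND3, -0.50 with shDHX15-1 and -0.95 with shDHX15-2) and cyclin E2 (CCNE2, 0.56 with shDHX15-1 and 0.84 with shDHX15-2). Of 20 genes of G2 and mitosis, 7 were higher and 9 lower with shDHX15-1 and 3 higher and 12 lower with shDHX15-2. The 4 named there were CDC20 (-0.82 with shDHX15-1 and -0.34 with shDHX15-2), PLK1 (-0.31 with shDHX15-1 and -0.47 with shDHX15-2), CCNB1 (-0.41 with shDHX15-1 and -0.36 with shDHX15-2) and CENPE (0.26 with shDHX15-1 and -1.40 with shDHX15-2), and CENPE was called in opposite directions.

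With ciclopirox more of the replication genes were called higher than lower. Of the 37 members tested (limma on log2(normalised count + 1)), 18 were higher, 3 lower and 16 not called, against 23.5% higher and 25% lower (48.5% in all) of 16825 genes. The ciclopirox and DMSO libraries did not overlap for 22 of 38 members (56.0% of genes). The median log2 fold change was 0.24 over the members and -0.02 over all genes tested. FEN1 was listed at 3.78 to 14.4 normalised counts in the 6 libraries and did not pass the filter on low values. Normalised counts are not per length, so they are compared only within a gene.

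The 4 licensing factors rose with ciclopirox, ORC6 without passing under median-centring (0.22). CDT1 was at 9374, 9863 and 8123 normalised counts with ciclopirox and 5374, 4049.7 and 3958 with DMSO, a log2 fold change of 1.04 ± 0.13 (SE, limma adjusted p = 7.75e-05). CDC6 was at 5906, 6078 and 5831 normalised counts with ciclopirox and 4169.9, 3685 and 3841 with DMSO, a change of 0.61 ± 0.09 (SE, limma adjusted p = 0.000221). ORC1 was at 4919.7, 5088 and 4628 normalised counts with ciclopirox and 3199.8, 3180.1 and 3074 with DMSO, a change of 0.63 ± 0.09 (SE, limma adjusted p = 0.000166), and ORC6 rose by 0.30. For CDT1, CDC6, ORC1 and ORC6 no ciclopirox library overlapped DMSO.

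In the helicase 10 of 12 members were not called, which depended on the scaling. With quantile normalisation MCM2 (0.22), MCM3 (0.23), MCM5 (0.48), GINS1 (0.23) and GINS4 (0.26) passed as higher. CDC45 rose, with 7095, 8133 and 6849.7 normalised counts with ciclopirox and 4497, 3734 and 3717 with DMSO, a log2 fold change of 0.89 ± 0.11 (SE, limma adjusted p = 7.06e-05). MCM6 fell, at -0.47 ± 0.08 (SE, limma adjusted p = 0.000638). MCM2 was at 16246, 18218 and 15504 normalised counts with ciclopirox and 20273, 16384 and 16374 with DMSO, and its change of -0.08 ± 0.11 (SE, limma adjusted p = 0.552) did not pass. The other 9 were MCM3 (0.07), MCM4 (-0.0019), MCM5 (0.16), MCM7 (0.01), MCM10 (-0.03), GINS1 (0.06), GINS2 (-0.10), GINS3 (0.04) and GINS4 (0.12), whose DMSO and ciclopirox libraries overlapped.

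Fork genes rose in 6 of 10 tested. POLE was at 21787, 25247 and 23033 normalised counts with ciclopirox and 14729.8, 12956 and 13040.0 with DMSO, a change of 0.78 ± 0.09 (SE, limma adjusted p = 6.07e-05). PCNA was at 26081, 25724 and 24618 normalised counts with ciclopirox and 19230.3, 16710.4 and 16739.5 with DMSO, a change of 0.54 ± 0.09 (SE, limma adjusted p = 0.000489), while it fell with both hairpins. RFC2 (0.59), RFC4 (0.56), RFC5 (0.44) and POLD1 (0.41) also rose, POLD1 without passing under median-centring (0.32), and RFC3 fell, at -0.60 ± 0.13 (SE, limma adjusted p = 0.0036). POLA1 (0.24), POLE2 (0.08) and PRIM1 (0.10) did not pass, while POLA1 passed with quantile normalisation (0.43).

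TK1 and RRM2 had the largest rises with ciclopirox. TK1 was at 3083, 3158 and 2841 normalised counts with ciclopirox and 999, 792 and 783 with DMSO, a log2 fold change of 1.83 ± 0.12 (SE, limma adjusted p = 1.21e-06). RRM2 was at 33287, 33491 and 34205 normalised counts with ciclopirox and 14854, 15475 and 14912 with DMSO, a change of 1.16 ± 0.08 (SE, limma adjusted p = 1.46e-06), and RRM1 rose by 0.46. TYMS was at 29719, 31288 and 28420.3 normalised counts with ciclopirox and 22708, 19215 and 19859 with DMSO, a change of 0.54 ± 0.09 (SE, limma adjusted p = 0.000669). UNG fell, at -0.39 ± 0.08 (SE, limma adjusted p = 0.00286), and did not pass with quantile normalisation (-0.14). In the regulators, HELLS was at 4252, 3761 and 4163 normalised counts with ciclopirox and 1956, 1873 and 1659 with DMSO, a change of 1.15 ± 0.10 (SE, limma adjusted p = 8.26e-06), and E2F1 at 6139, 6565 and 5691 normalised counts with ciclopirox and 4102, 3538 and 3539.9 with DMSO, a change of 0.72 ± 0.10 (SE, limma adjusted p = 0.000164). DTL rose by 0.28, and did not pass with median-centring (0.19). UHRF1 (-0.16), CHEK1 (-0.03) and SLBP (0.01) did not pass, with SLBP at 6859, 6909.6 and 6040.1 normalised counts with ciclopirox and 6713, 6317 and 6597 with DMSO. UHRF1 passed with median-centring (-0.25) and SLBP with quantile normalisation (0.26).

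**Figure D2:**
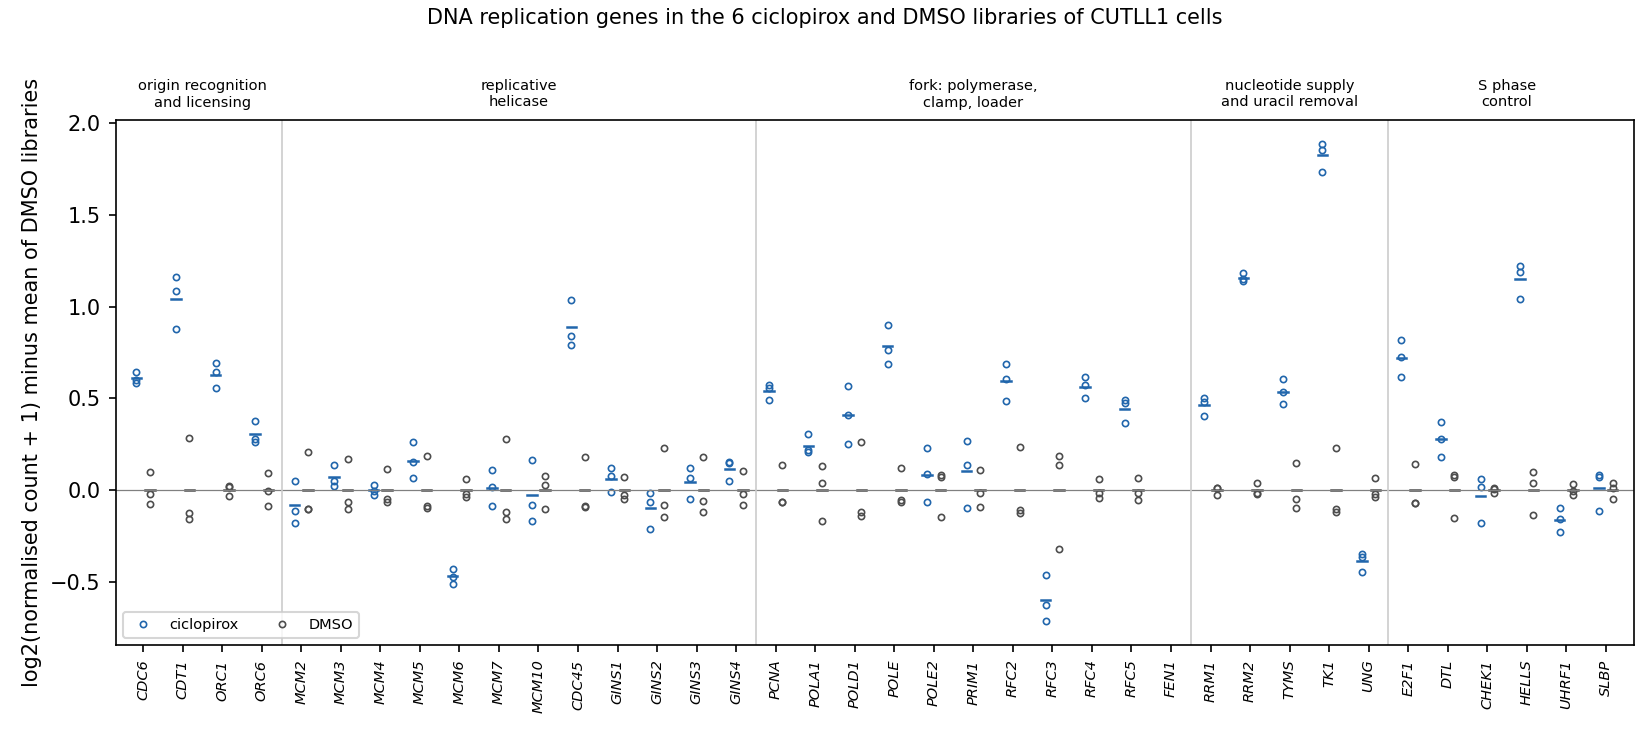
Each point is 1 library, as log2(normalised count + 1) minus the mean of the 3 DMSO libraries, for the members in the order of the shRNA plot; ticks are group means and FEN1 is left out because of its low counts. TK1 stands highest at 1.83, CDT1, RRM2 and HELLS average above 1, and MCM6, RFC3 and UNG lie below DMSO.

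The hairpin and ciclopirox experiments have separate controls, so members can be set side by side. Of the 9 members that rose with both hairpins, 8 rose with ciclopirox (CDT1, DTL, E2F1, HELLS, POLE, RRM2, TK1 and TYMS) and PRIM1 did not pass. Among all 3210 genes that rose with both hairpins and were tested with ciclopirox, 38.9% rose with ciclopirox. Of the 11 members that fell with both hairpins, 3 fell with ciclopirox (MCM6, RFC3 and UNG), 1 rose (PCNA) and 7 were not called. Among the 2422 genes that fell with both hairpins, 59.3% fell and 7.39% rose with ciclopirox.

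The counts of the related lists with ciclopirox stand beside 23.5% higher and 25% lower of all genes. Of 44 tested other replication genes 18 were higher and 9 lower, led by ASF1B, a histone chaperone (1.2), TK2, the mitochondrial thymidine kinase (1.11), and LIG1, the replicative DNA ligase (1.05). SAMHD1, a dNTP hydrolase, was at 1.01 without passing (limma adjusted p = 0.0673). Of 24 genes of E2F and G1 to S control 8 were higher and 11 lower, led by the CDK inhibitor CDKN1A (4.22), CCNE2 (1.65), CCNE1 (1.65) and the repressor E2F8 (1.38). Of 20 genes of G2 and mitosis 2 were higher and 15 lower, with a median of -0.92, led by CDC20 (-2.95), PLK1 (-2.70), CCNB1 (-2.36) and CENPE (-1.73).

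Read totals were worked out from the deposited values. The library totals behind the RPKM were 59702150 to 62633707 in the shRNA libraries. The sums of recovered gene counts were 32451469 to 37177509 in the ciclopirox experiment, so the 2 ranges are not the same measure. Of the T lineage markers 6 of 7 had values in the shRNA table, and they summed to 792 to 801 RPKM with shDHX15-1, 889 to 911 with shDHX15-2 and 694 to 733 with shGFP. Of the markers of other cell types 3 of 10 had values there, and the other 7 were not measured. They summed to 49.6 to 50.9 RPKM with shDHX15-1, 79.1 to 80.6 with shDHX15-2 and 44.5 to 46.6 with shGFP, with CD79A of B cells at 0.49 with shDHX15-1 and 1.23 with shDHX15-2 and the endothelial PECAM1 at -0.42 with shDHX15-1 and -0.02 with shDHX15-2 on the log2 scale. With ciclopirox the sums were 59800 to 69400 normalised counts of 7 T lineage markers, against 68300 to 84300 with DMSO, and 6690 to 7090 of 7 other markers, against 6950 to 7930 with DMSO. Their part in the members' changes was not tested.

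Peaks of DHX15 RIP lay in 11 of the 38 members, by at least 1 base and without regard to strand, which is 28.9% of members against 26.3% of 9407 genes. The peak header names no build, and 4019 of the 4499 peaks lay inside GRCh38.p14 spans of protein-coding genes. The members with peaks were ORC6 (3 peaks), GINS4 (3), E2F1, POLE, RFC5, CHEK1 and TYMS (2 each), and MCM5, CDC45, GINS3 and RFC3 (1 each). The fold enrichments in the authors' deposited list ran from 1.501 to 1.953 over these 20 peaks, and 0 members held one of at least 2 (5.06% of genes did). E2F1 held the longest peak of the rising members, 9895 bases at chr20:33676507-33686401 on the gene's strand, with a fold of 1.87 and an FDR of 6.76e-20 in the authors' deposited list. GINS3 held a peak of 10819 bases at chr16:58392443-58403261, with a fold of 1.95. The 2 TYMS peaks lay on the opposite strand, at chr18:658021-658340 over TYMSOS and chr18:670323-670623 over ENOSF1, and on the strand of the gene 8 of 35 members with a known strand held a peak (24.1% of all genes). Of the members with a peak 3 of 11 fell and 6 of 11 rose with shDHX15-1, and of the 27 without one 9 fell and 13 rose, with no test made.

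In the thymus all 38 members were higher in the Dhx15 KO library than in the floxed control by CPM, with Gins4 as the exception after thinning (0.965). The 38 members summed to 3845 CPM (UMIs of a gene scaled to a common library total) in 7400 KO cells and 2485 CPM in 8889 floxed control cells, a ratio of 1.55 (exact 95% interval 1.54 to 1.56; all thymus intervals cover counting error only). Dhx15 was at 100 CPM (7470 UMIs, interval 97.9 to 102) in the KO library and 181 CPM (9057 UMIs, interval 177 to 185) in the floxed control, a ratio of 0.55. Of the members 25 were at least 1.5-fold higher and 0 as much lower, against 12.9% higher and 15.7% lower of 11812 genes with at least 100 UMIs. The median ratio was 1.65 over the members and 0.93 over all genes. There is 1 library per group, so no test and no replicate check exist, and the depth differed, with a median of 7070.5 UMIs per cell in the KO library and 3695 in the floxed control. The libraries shared 17 barcodes.

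**Figure D3:**
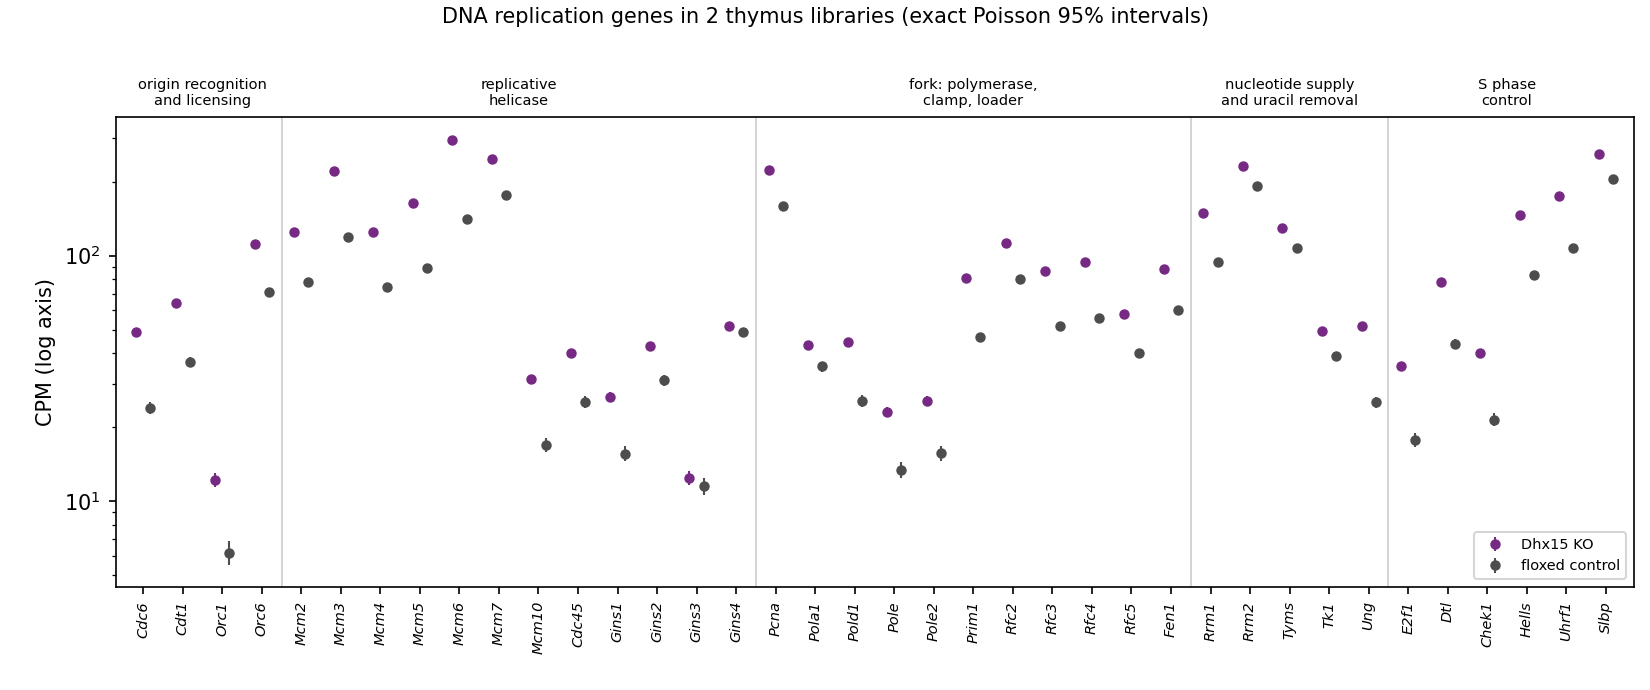
Points are CPM of each member on a log axis in the Dhx15 KO library and the floxed control, with exact Poisson 95% intervals that cover counting error only. The KO point lies above the floxed control point for all 38 members, most for Mcm6 and least for Gins4.

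Members differed in how far apart the libraries were. Mcm6 was at 296 CPM (22046 UMIs, interval 292 to 299) in the KO library and 140 CPM (7021 UMIs, interval 137 to 144) in the floxed control, a ratio of 2.11. Ung was at 51.9 CPM (3871 UMIs, interval 50.3 to 53.5) in the KO library and 25.2 CPM (1263 UMIs, interval 23.9 to 26.7) in the floxed control, a ratio of 2.06. Cdc6 was at 48.8 CPM (3638 UMIs, interval 47.2 to 50.4) in the KO library and 23.9 CPM (1195 UMIs, interval 22.5 to 25.3) in the floxed control, a ratio of 2.04. These 3, which lead by ratio, belong to the helicase, to uracil removal and to licensing. E2f1 was at 35.5 CPM (2648 UMIs, interval 34.2 to 36.9) in the KO library and 17.7 CPM (887 UMIs, interval 16.6 to 18.9) in the floxed control, a ratio of 2.00. Orc1 (1.98), Mcm3 (1.86), Chek1 (1.86) and Mcm10 (1.86) completed the 8 largest ratios.

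Rrm2, Tyms and Tk1, whose human genes rose in CUTLL1 with both hairpins, were among the smallest ratios in the thymus. The human genes of Pole (1.72), Cdt1 (1.74), Prim1 (1.75), Hells (1.76), Dtl (1.79) and E2f1 (2.00) rose as well. The thymus ratios of these lay above the members' median of 1.65. Rrm2 was at 231 CPM (17225 UMIs, interval 227 to 234) in the KO library and 192 CPM (9587 UMIs, interval 188 to 195) in the floxed control, a ratio of 1.21. Tyms was at 130 CPM (9683 UMIs, interval 127 to 132) in the KO library and 108 CPM (5397 UMIs, interval 105 to 111) in the floxed control, a ratio of 1.203. Tk1 had a ratio of 1.27 and Slbp of 1.27, and Gins3 (1.08) and Gins4 (1.06) were lowest. Mcm2 was at 124 CPM (9264 UMIs, interval 122 to 127) in the KO library and 77.8 CPM (3894 UMIs, interval 75.4 to 80.3) in the floxed control, a ratio of 1.60. Pcna was at 1.40, Cdt1 at 1.74 and Pole at 1.72. Of the other helicase genes, Gins2 (1.38) and Mcm7 (1.40) were low in this order, Cdc45 (1.58), Mcm4 (1.67) and Gins1 (1.70) lay near the members' median and Mcm5 (1.84) above it. Of the other fork genes, Pola1 (1.23), Rfc2 (1.40), Rfc5 (1.45) and Fen1 (1.47) stayed under a 1.5-fold ratio, and Pole2 (1.63), Rfc3 (1.68), Rfc4 (1.70), Pold1 (1.75) and Prim1 (1.75) passed it. Orc6 (1.56), Rrm1 (1.58), Uhrf1 (1.63), Hells (1.76) and Dtl (1.79) passed it as well.

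Of the 20 genes of G2 and mitosis 0 were at least 1.5-fold higher or lower, with a median ratio of 1.07. Of 46 other replication genes 14 were at least 1.5-fold higher and 3 as much lower (median 1.31), and of 24 genes of E2F and G1 to S control 5 and 5 (median 1.09). After thinning each cell to 2000 UMIs, which left out 411 KO and 603 floxed control cells, a KO cell held a mean of 4.92 member UMIs and a floxed control cell 2.59. The upper quartile was 7 in KO cells and 3 in floxed control cells, and the 90th percentile 14 in KO cells and 5 in floxed control cells. Before thinning the mean was 38.8 in KO cells and 13.99 in floxed control cells.

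Within the clusters that held most member UMIs the KO sum was the lower one. Cells were clustered without the members, the related lists, histone genes and mitochondrial genes, and no doublets were removed. Cluster 0, which still had Cdc6 and Ung as its leading genes and took no cell type name, held 18.1% of KO cells and 3.19% of floxed control cells. It gave 62.2% of all member UMIs in the KO library and 37.9% in the floxed control. Inside cluster 0 the members summed to 6303 CPM in KO cells and 6983 CPM in floxed control cells, a ratio of 0.90, with Dhx15 at 90.03 CPM in KO cells and 219 CPM in floxed control cells. Of 38, 0 members were 1.5-fold apart there (4.81% of genes were higher and 2.88% lower), and 3 had a ratio above 1, which were Mcm6 (1.07), Cdt1 (1.05) and Pold1 (1.03).

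Cluster 7, led by the mitotic genes Ube2c and Cenpf, held 7.46% of KO cells and 5.70% of floxed control cells. Its members summed to 4994 CPM in KO cells and 5409 CPM in floxed control cells, a ratio of 0.92. Of 37 members with at least 100 UMIs 0 were 1.5-fold higher (4.02% of genes) and 4 lower (8.69% of genes), which were Tk1 (0.43), Tyms (0.61), Gins3 (0.62) and Pola1 (0.62). A ratio above 1 was found for 19 of the 37, and the median ratio over the 37 was 1.016, against 0.941 over all genes in cluster 7. The lower sum was therefore not a fall of most members. Mcm10 (1.30), Mcm6 (1.26) and Orc1 (1.23) had the highest ratios in cluster 7. In KO cells Cdc6 was at 98.9 CPM in cluster 0 and 37.9 CPM in cluster 7, while Rrm2 was at 359.6 CPM in cluster 0 and 596 CPM in cluster 7.

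DN2-3-like cells, named by Il2ra, Ptcra and Hes1 of early thymocytes, made up 16.2% of KO cells and 1.316% of floxed control cells. Their members summed to 2395 CPM in KO cells and 2879 CPM in floxed control cells, a ratio of 0.83, with Dhx15 at 133 CPM in KO cells and 156 CPM in floxed control cells, a ratio of 0.85. Of the 38 members 3 were 1.5-fold lower (Pola1 0.50, Chek1 0.51 and Rrm2 0.60; 3.29% of genes were lower). Orc1 was the 1 member 1.5-fold higher (6.75% of genes), with 101 UMIs in KO cells and 8 in floxed control cells. Its KO cells alone met the minimum of UMIs per gene, so this ratio rests on few floxed control UMIs. At a clustering resolution of 0.5, over a slightly different set of cells, 0 members were 1.5-fold higher in this class and 3 were lower. Cluster 3, led by Igfbp4, Maf and Sox13 and left unnamed, was at 1813 CPM in 338 KO cells and 2959 CPM in 68 floxed control cells, a ratio of 0.61. There Rrm2 had 274 UMIs in KO cells and 269 in floxed control cells, a ratio of CPM of 0.29. Cluster 1, led by Gm14085 and Tubb2b, was at 1340 CPM in 1272 KO cells and 1480 CPM in 48 floxed control cells.

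In 4 named classes the KO sum was the higher one. TCR-signalled-like cells were at 941 CPM in KO cells and 768 CPM in floxed control cells, a ratio of 1.22. There Rrm2 had 45 UMIs (24.7 CPM) in KO cells and 88 UMIs (10.2 CPM) in floxed control cells, a ratio of CPM of 2.43. NK and innate-like cells were at 1518 CPM in 231 KO cells and 971 CPM in 64 floxed control cells, a ratio of 1.56, where Rrm2 had 115 UMIs in KO cells and 8 in floxed control cells. Mature SP-like cells were at 1298 CPM in 46 KO cells and 1243 CPM in 595 floxed control cells, a ratio of 1.04 with overlapping intervals. DP-like cells were at 847 CPM in KO cells and 737 CPM in floxed control cells, a ratio of 1.15. Members are not counted as higher or lower in these 4 classes. The numbers of cells differ between the libraries there, and a member could reach the minimum of 100 UMIs through 1 of them. The counts given above for the DN2-3-like cells have the same limit. In all classes and clusters but the DN2-3-like cells, Dhx15 had a KO to floxed control ratio between 0.41 and 0.69. DP-like cells lay in different clusters in the 2 libraries, with cluster 4 holding 1374 KO and 43 floxed control cells, cluster 12 holding 85 KO and 2915 floxed control cells and cluster 13 holding 124 KO and 1880 floxed control cells. At a clustering resolution of 0.5 the ratio in DP-like cells was 1.51, over a different set of cells. The class then held 2906 KO and 5197 floxed control cells, against 1583 and 4838 at resolution 1. The part of cell composition in the difference between the libraries was not tested.

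**Figure D4:**
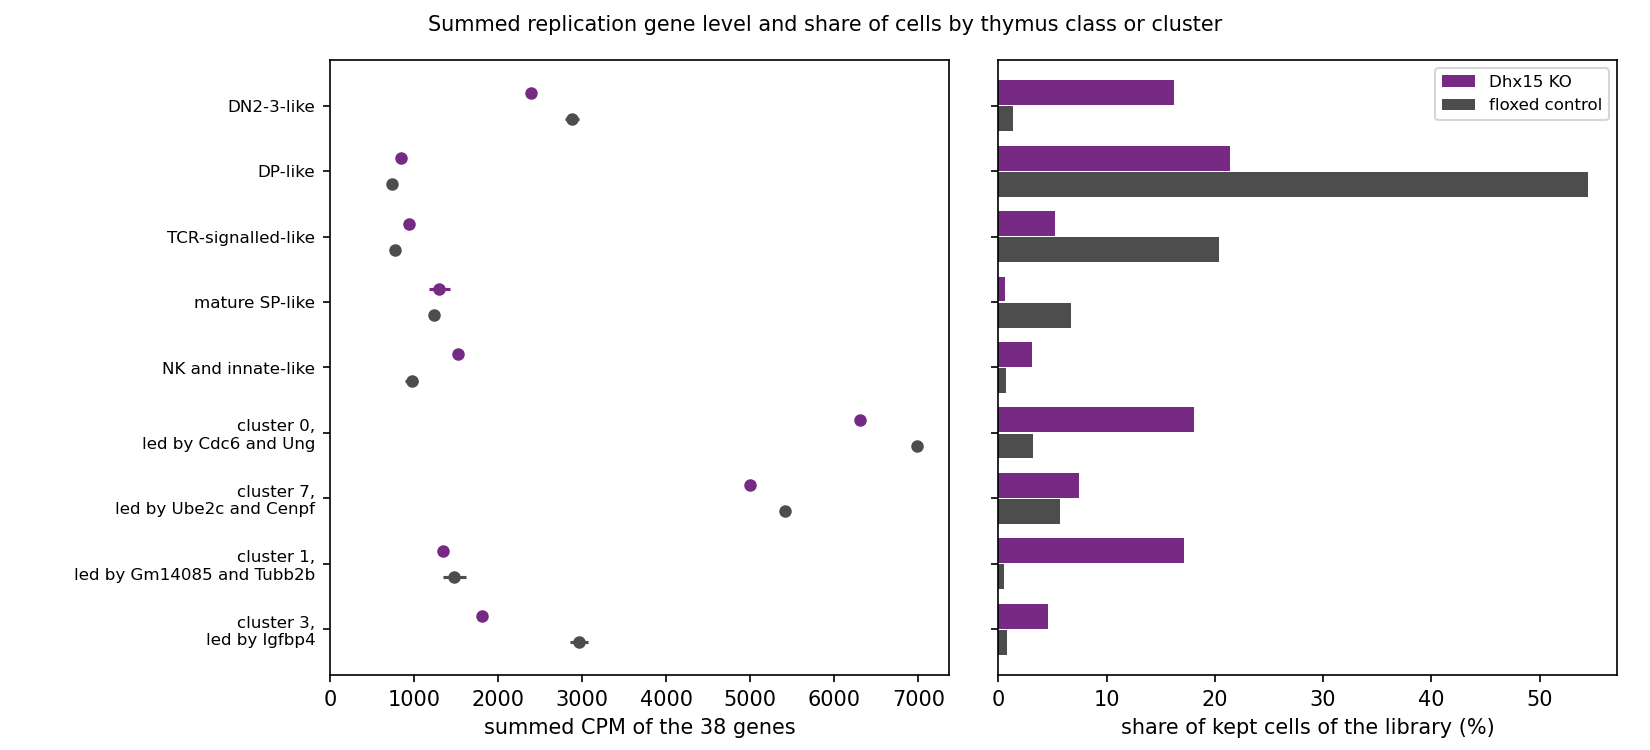
The left panel gives the summed CPM of the 38 members per class or cluster in the Dhx15 KO library and the floxed control, with exact Poisson 95% intervals, and the right panel the share of kept cells. The KO sum is below the floxed control in cluster 0 (6303 CPM in KO cells, 6983 CPM in floxed control cells), while the cluster holds 18.1% of KO cells and 3.19% of floxed control cells.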

How the data were processed

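The members and lists were chosen with earlier results of these data known. The named genes were DHX15 and all members, with library values for the 8 largest changes per comparison and 9 further members, and up to 4 genes of each related list. RNA-seq of CUTLL1 was deposited by the authors as RPKM in 9 libraries. The ciclopirox table holds a normalised signal (each library's gene counts over its size factor) and log2 fold changes, as deposited by the authors. Whole reads were recovered for 19747 of 19848 genes of the RPKM table (100 were at 0; 99.99% of values whole within 0.001 reads) and for 100.0% of ciclopirox values (within 0.01). The peak list gives a fold enrichment ratio, p-value and FDR per peak as deposited by the authors, and its caller, control and pooling are not stated. The thymus matrices hold UMI counts from Cell Ranger, per the file headers. Per the submitters' processing notes, which give no roles, the tools were STAR 2.4.1.7 and 2.7.5c, Cell Ranger 6.0.2, Scanpy 1.7.1, FastQC 0.11.9 and DESeq2 1.32.0, and the builds hg38, hg19 and mm10.

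Here limma 3.58.1 (R 4.3.3, trend) was fitted on log2(RPKM + 1) over 15022 genes with at least 1 RPKM in at least 3 libraries, and on log2(normalised count + 1) over 16825 genes with at least 10 in at least 3, two-sided, Benjamini-Hochberg adjusted over all genes, called under 0.05. Alternatives were edgeR 4.0.16 and DESeq2 1.42.0 on recovered reads, other scalings, filters and pseudocounts, and libraries left out. Thymus cells with at least 500 UMIs and at most 10% mitochondrial UMIs were clustered with scanpy 1.11.5 (Leiden, resolution 1), and classes were assigned to clusters after their markers were seen. No doublet caller was run, and 5 clusters were placed in no class. Scripts were tested on simulated data.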

Additional observations from a re-analysis of the deposited data

Results flagged for a closer look

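For 24 of the 38 members the log2 change with shDHX15-1 differed from that with shDHX15-2, by limma's test of the difference itself at an adjusted p under 0.05 over all genes. The test called 61.1% of all genes, so such differences were common across the genes tested. The shDHX15-1 minus shDHX15-2 difference was 0.56 for SLBP, 0.48 for CDT1, 0.48 for RRM2, 0.37 for HELLS, 0.30 for POLE and 0.28 for E2F1. It was 0.24 for POLD1, 0.24 for PRIM1, 0.24 for DTL, 0.23 for RFC5, 0.22 for TK1 and 0.20 for MCM4. Smaller differences were 0.17 for CDC45, 0.17 for RFC2, 0.16 for POLE2, 0.15 for MCM10, 0.14 for CDC6, 0.11 for RFC4, 0.10 for MCM5, 0.08 for RFC3, 0.08 for UNG and 0.07 for POLA1. Median-centring moved this difference by a median of -0.07 over all genes, about the size of the smallest of them. GINS3 (-0.32) and CHEK1 (-0.14) were lower with shDHX15-1 than with shDHX15-2. DHX15 itself did not pass in this difference, at 0.04. Both hairpins were set against the same shGFP libraries, which cancel from the difference.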

How the results depend on the processing

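Median-centring gave 12 members higher with shDHX15-1, against 19, and quantile normalisation gave 14 higher with both hairpins, against 9. On recovered reads edgeR called 14 members higher and 18 lower with shDHX15-1, and DESeq2 13 and 18. The shares of all genes called higher or lower are not given for these alternatives. With shDHX15-1 the sign turned for MCM3 (0.031) and MCM7 (0.015) under quantile normalisation. Under median-centring, edgeR and DESeq2 it turned for MCM4 (-0.065, -0.049 and -0.057), MCM5 (-0.044, -0.027 and -0.035), POLA1 (-0.11, -0.092 and -0.099) and RRM1 (-0.083, -0.067 and -0.075). MCM2 with ciclopirox was 0.22 under quantile normalisation. Median-centring moved the median of all genes with shDHX15-1 by -0.11. The thymus ratio of summed CPM was 1.90 without the 2% of cells with the most UMIs, 1.71 without ribosomal protein and mitochondrial genes in the denominator and 1.90 after thinning, where Gins4 was 0.965. At resolution 0.5, where these groups held other sets of cells, the ratio was 1.51 in DP-like cells, 0.874 in cluster 0, 0.755 in cluster 7 and 0.584 in cluster 3. With a fold of at least 2, 0 members held a RIP peak. The causes were not tested. Leaving out 1 library at a time gave 18 to 19 higher and 12 lower with shDHX15-1, 8 to 11 and 14 to 16 with shDHX15-2, 8 to 10 and 11 with both, and 15 to 18 and 3 with ciclopirox. With the replicate block the counts were 18 higher and 12 lower with shDHX15-1, 10 and 15 with shDHX15-2, 10 and 11 with both, and 18 and 3 with ciclopirox. In their deviations from group means, same-numbered libraries correlated at -0.000609 to 0.0951 in the shRNA experiment and -0.108 to 0.163 with ciclopirox. Differently numbered libraries correlated at -0.123 to 0.0466 and at -0.289 to 0.182. These small values do not settle whether same-numbered libraries were paired, and the labels give only the number.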

Other observations

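FEN1 was at 80.2 RPKM in the shGFP libraries, while the ciclopirox table lists it at 3.78 to 14.4 normalised counts in the same cell line.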
